A study of Drosophila melanogaster with 48 samples.

Results

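The first and the second day of constant darkness (DD) were compared in ribosome-bound RNA from astrocytes of adult Drosophila melanogaster heads. Flies had been entrained to a cycle of 12 h light and 12 h dark, and heads were collected every 4 h after transfer to DD. The 12 libraries at 0 to 20 h in DD (day 1) were set against the 12 libraries at 24 to 44 h (day 2), which are all 24 libraries of the series. Each day 1 library was paired with the day 2 library of the same circadian time (CT, hours in DD modulo 24) and biological replicate, which gave 12 pairs, 6 in each of 2 replicates. All flies carried elav-Gal80, eaat1-Gal4 and UAS-EGFP-L10a, so that a tagged ribosomal protein was made where the eaat1 driver acts and neuronal Gal80 does not block it. The driver also acts in some cortex glia. No light, drug or genotype differed between the days, and both replicates came from separate crosses. Of 17558 genes in the files, the 9392 with a mean of at least 20 counts per library were tested.

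The fly clock is a feedback loop in which CLOCK and CYCLE drive transcription of period (per) and timeless (tim), whose proteins return to the nucleus and repress it. A second loop runs through vrille (vri) and Pdp1, which repress and activate Clock (Clk). In light, cryptochrome (cry) marks TIM for destruction; in DD the loop runs without this daily reset. Clocks in fly heads are known to lose amplitude in darkness, in part because the clocks of different cells drift apart. In RNA pooled from many heads, loss of synchrony and a weaker rhythm in each cell give the same reading.

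Counts in genes ranged from 7138006 to 37267216 per library on day 1 and from 6371034 to 29616035 on day 2. Levels below are CPM, counts scaled to a common library total by the trimmed mean of M values (TMM), and differences are day 2 minus day 1 on the log2 scale unless stated. In the 28 h library of replicate 2, the 10 most abundant genes held 49.6% of the counts, against 9.20% to 14.6% in the others. The astrocyte label could be checked on 2 of 12 listed markers whose symbols could be paired with a gene identifier. Gabat, the enzyme that breaks down GABA, ranged from 86.5 to 143 CPM on day 1 and from 54.7 to 129 CPM on day 2. The gene e (ebony), which couples amines to beta-alanine in glia, ranged from 22.2 to 72.02 and from 20.8 to 50.8 CPM. Rhodopsin 6 (Rh6), a photoreceptor gene, averaged 380 CPM on day 1 and 400.1 CPM on day 2, so the libraries also held photoreceptor RNA. None of 18 neuron markers could be paired with an identifier. In such pooled RNA, fewer cells of a type and less RNA per cell cannot be told apart.

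The oscillation of tim was shallower on day 2. In replicate 1, tim on day 1 stood at 26.9, 13.8, 50.2, 181, 367 and 188 CPM at CT 0, 4, 8, 12, 16 and 20. The same times on day 2 gave 42.3, 47.7, 104, 154, 287 and 169 CPM. In replicate 2, the day 1 series was 57.0, 14.5, 51.5, 197, 375 and 183 CPM and the day 2 series was 114, 65.7, 94.2, 300.3, 320.1 and 255.4 CPM. The trough was higher on day 2 in both replicates, and the crest at CT 16 was lower in both. At CT 4 the paired log2 difference was 1.79 in replicate 1 and 2.18 in replicate 2, at CT 8 it was 1.05 and 0.87, and at CT 16 it was -0.36 and -0.23. The gene for tim lies at 2L:3493986-3508119 in the Release 6 assembly; a long non-coding RNA and a snoRNA gene overlap it.

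The 24 h amplitude is the height of a fitted cosine above its mean on the log2 scale. For tim it was 2.26 ± 0.14 (SE) on day 1 and 1.27 ± 0.14 on day 2, with 12 libraries a day. The SE uses 1 residual spread fitted over all 24 libraries, so it is equal on both days. The fitted crest was 22.997 times the trough on day 1 and 5.83 times on day 2. When day labels were exchanged within the 12 pairs in all possible orders, the difference of -0.99 ± 0.20 had a two-sided exact permutation p of 0.000488, the smallest that these orders can give. The amplitude was 2.36 and 1.33 on the successive days in replicate 1, and 2.17 and 1.23 in replicate 2. Over all genes, edgeR's quasi-likelihood test of a rhythm that differs between the days gave tim p = 0.000237, which did not pass adjustment (adjusted p = 0.716). The time of the crest was 15.8 h on day 1 and 15.5 h on day 2, a difference of -0.29 ± 0.49 h (exact permutation p = 0.522).

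**Figure D1:**
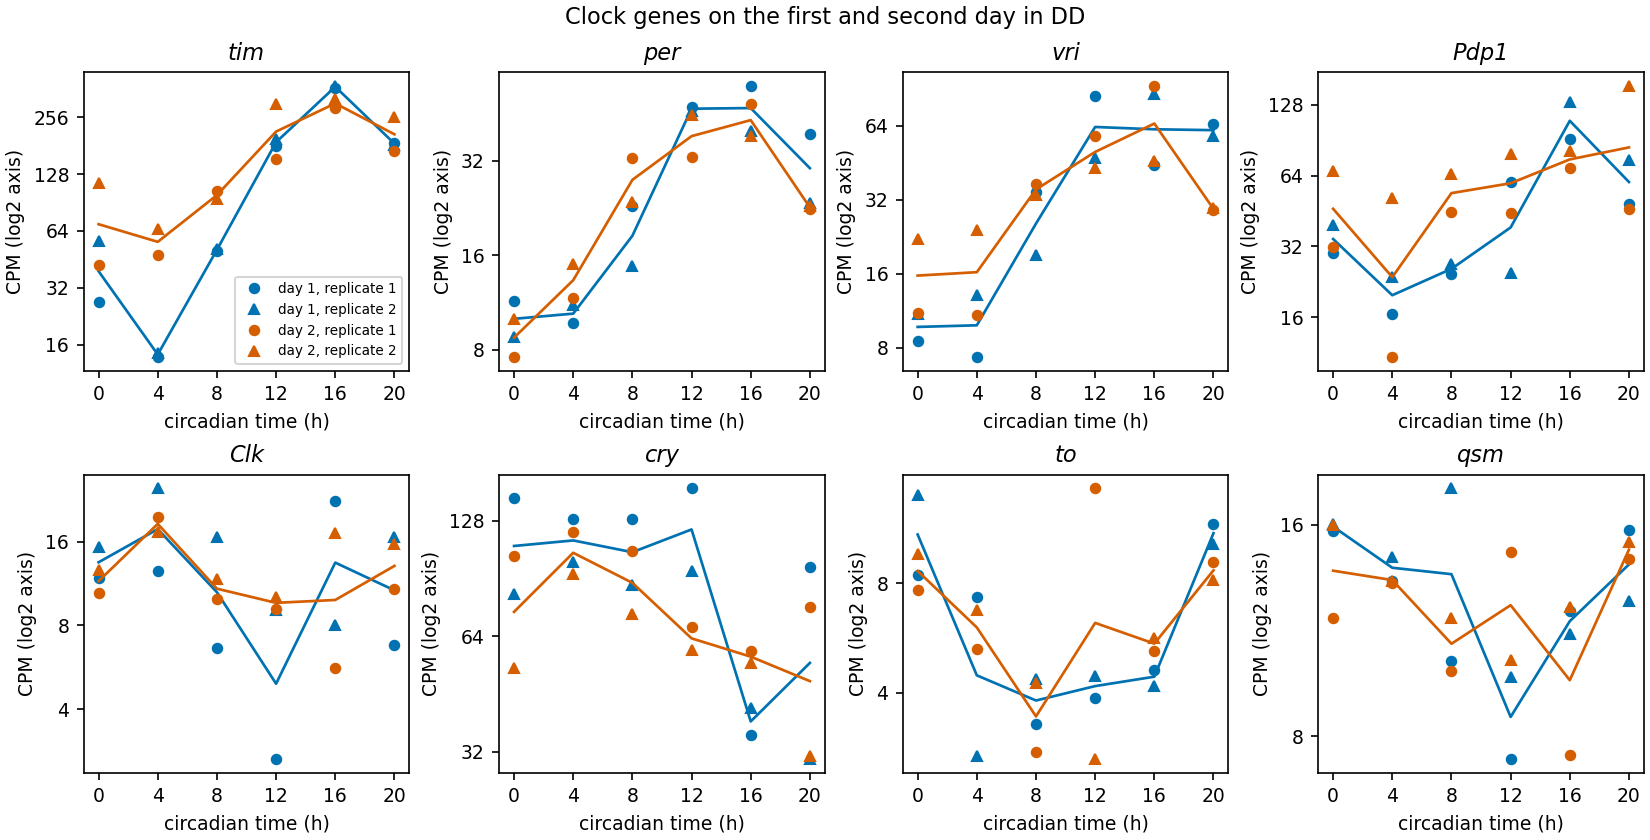
Level of 8 clock and clock output genes in CPM (log2 axis) against circadian time in hours, for day 1 (blue) and day 2 (orange); circles are replicate 1, triangles are replicate 2 and lines join the geometric means of both. The day 2 line of tim starts above that of day 1 at CT 0 to 8 and lies below it at CT 16.

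The partner gene per kept more of its swing. Its levels in replicate 1 were 11.4, 9.73, 23.04, 47.7, 55.6 and 39.0 CPM at CT 0 to 20 of day 1, and 7.58, 11.7, 32.7, 32.9, 48.5 and 22.5 CPM on day 2. In replicate 2 they were 8.77, 11.1, 14.8, 46.2, 39.999 and 23.5 CPM, then 10, 15.04, 23.7, 44.7, 38.4 and 22.9 CPM. In both replicates per was higher on day 2 at CT 4 and CT 8 and lower at CT 12, 16 and 20. The amplitude was 1.29 ± 0.13 on day 1 and 1.12 ± 0.13 on day 2, a difference of -0.17 ± 0.18 that was smaller than its error (exact permutation p = 0.250, n = 12 pairs). The crest came at 14.7 ± 0.38 h on day 1 and 13.4 ± 0.44 h on day 2, a difference of -1.27 ± 0.58 h with an exact permutation p of 0.0571. The gene lies at X:2685580-2692780 and overlaps dyw.

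For vri, which encodes the repressor of Clk, the amplitude was 1.60 ± 0.23 on day 1 and 1.06 ± 0.23 on day 2 (exact permutation p = 0.0737, n = 12 pairs). The replicates differed here, with 1.71 and 1.58 in replicate 1 against 1.53 and 0.54 in replicate 2. At CT 20, vri stood at 64.9 and 58.01 CPM in the replicates on day 1 and at 29.05 and 29.6 CPM on day 2. At CT 16 the replicates went opposite ways, with paired log2 differences of 1.06 in replicate 1 and -0.91 in replicate 2. At CT 0 and CT 4 of day 1 its levels were 8.53, 7.33, 10.99 and 13.1 CPM, against 11.1, 10.9, 22.2 and 24.1 CPM on day 2. Pdp1, the activator, had amplitudes of 1.10 ± 0.24 and 0.73 ± 0.24 (exact permutation p = 0.285), and its level ranged from 16.5 to 131 CPM on day 1 and from 10.9 to 154 CPM on day 2. Between the days the swing of Pdp1 went from 1.15 to 0.98 in replicate 1 and from 1.13 to 0.55 in replicate 2.

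Of 20 listed clock and output genes, 8 could be paired with an identifier, and all 8 were tested. The fitted amplitude was lower on day 2 for 8 of 8, against 50.1% of all genes tested, and the day 2 value was 56.2% (tim) to 86.6% (per) of the day 1 value. Taken by replicate, it was lower for 8 of 8 in replicate 1 and 7 of 8 in replicate 2. The exception was takeout (to), a clock-controlled gene tied to feeding, with 0.844 and 0.849 in replicate 2. Only tim had an exact p below 0.05 among these 8 amplitude tests, and none of the 8 timing tests did. Amplitudes were 0.56 ± 0.26 and 0.34 ± 0.26 for Clk, 0.73 ± 0.18 and 0.51 ± 0.18 for cry, 0.84 ± 0.25 and 0.53 ± 0.25 for to, and 0.35 ± 0.12 and 0.21 ± 0.12 for quasimodo (qsm), which acts in light input. The cry crest fell in the subjective day, at 5.72 h on day 1 and 5.37 h on day 2, far from those of tim and per.

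No clock gene was called by edgeR for its mean level over the day. The level of tim was 0.62 ± 0.21 higher on day 2 on the log2 scale, with 8 of 12 pairs higher and an adjusted p of 0.310 in edgeR's paired fit; DESeq2 called it (adjusted p = 0.0167), with 8.49% of all genes called by DESeq2 as higher. That of cry was lower by 0.25 ± 0.14 (9 of 12 pairs lower, adjusted p = 0.380) and that of Pdp1 was higher by 0.39 ± 0.22 (7 of 12 pairs higher, adjusted p = 0.396). For per, vri, Clk, to and qsm the log2 difference lay between -0.05 and 0.12. Of the 8 genes 5 were higher, against 48.8% of all genes tested. The Pdp1 difference came from replicate 2 (0.88), with -0.10 in replicate 1.

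Across all genes, a 24 h rhythm was called (edgeR, adjusted p under 0.05) for 16 genes on day 1, 0.17% of those tested, and for 2 on day 2, 0.0213%. The day 2 genes were tim (adjusted p = 0.000412) and per (adjusted p = 0.000634), and both were among the 16. No gene was called for a rhythm that differed between the days, with 540 at an unadjusted p under 0.05 and a lowest adjusted p of 0.716, so the drop from 16 to 2 calls is not a tested difference. Over all genes the median amplitude was 0.225 on day 1 and 0.212 on day 2. The day 1 calls numbered 2 without replicate 1 and 1 without replicate 2, and the day 2 calls 1 and 0, with neither tim nor per called on day 2 in a single replicate. Without the 16 h library of replicate 1, the day 2 calls numbered 4.

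Beside tim, per and vri, the day 1 calls were Ugt35b, a UDP-glycosyltransferase, Cyp4d21, a cytochrome P450, phu, Chd64, CG42329, CG13283, CG12116, CG34134, CG11407, CG2681, CG13631, CG4825 and 1 gene with no symbol in the tables used. These genes were chosen by their day 1 values, so a lower value on day 2 is partly built in, and no test is given. All 16 had a lower amplitude on day 2, with a median ratio of 0.571 and a range from 0.323 to 0.932. For Ugt35b, levels at CT 0 and CT 4 were 73.7, 87.8, 66.3 and 50.6 CPM on day 1 and 48.3, 67.1, 63.8 and 37.6 CPM on day 2, while the CT 12 values were 12.1 and 15.4 CPM and then 31.2 and 18.3 CPM. Its amplitude was 1.36 ± 0.15 and 0.78 ± 0.15, and that of CG13283 was 0.93 ± 0.08 and 0.49 ± 0.08. Cyp4d21 held the most, at 0.81 ± 0.14 and 0.75 ± 0.14. When genes were instead ranked by their day 2 p, a choice that favours day 2, 9 of the first 16 had the lower amplitude on day 2. Of all 478 genes at an unadjusted day 2 p under 0.05, 84.31% had the higher amplitude on day 2. The 50.1% of all genes with a lower amplitude is no benchmark for genes chosen by either day. Neither choice can thus decide whether rhythms weakened across genes, because each favours the day used to choose.

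**Figure D2:**
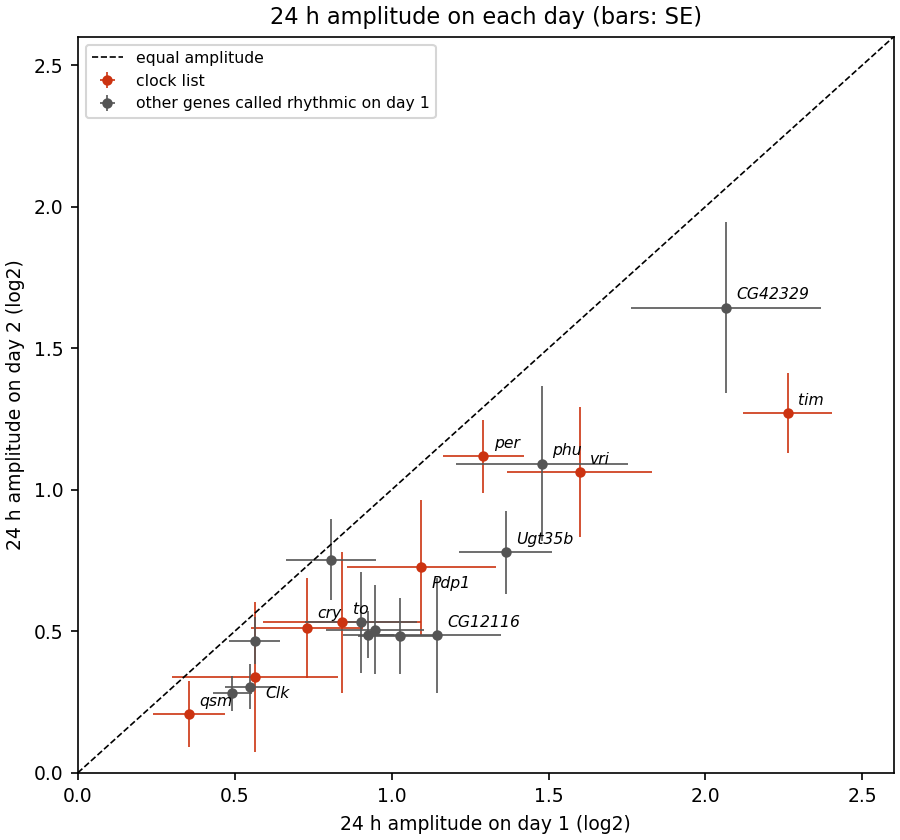
24 h amplitude on day 2 against day 1, both in log2 units, with 12 libraries a day. Bars are SE from 1 residual spread fitted over all 24 libraries. The clock list is red, and the other genes with a symbol that were called rhythmic on day 1 are grey. The dashed line marks equal amplitude. Every point lies below the line, and tim (2.26 and 1.27) lies farthest from it.

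The genes with the smallest p for a rhythm that differed between the days were Amy-d, tim, b, CG34134 and 2 genes with no symbol. Amy-d encodes an alpha-amylase of the gut; its crest was fitted at 8.37 h on day 1 and 16.6 h on day 2, with amplitudes of 0.51 ± 0.15 and 0.69 ± 0.15. The gene b (black) makes beta-alanine for the same amine recycling as ebony, and its crest was at 23.7 h on day 1 and 15.1 h on day 2. For CG34134 the crest was at 23.4 h and 19.6 h and the amplitude 1.03 ± 0.13 and 0.48 ± 0.13. None passed adjustment (adjusted p = 0.716 for each). Amy-d is 1 of the 4 gut enzyme genes summed below, whose level was highest in the libraries highest in male reproductive RNA; the part of that RNA in its timing was not tested.

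The largest level differences between the days were increases in genes of low counts, and those that could be named included genes of the testis and male accessory organs. The log2 difference exceeded 1 for 898 genes and fell below -1 for 7, and 829 of the 898 had a mean count under 200. A symbol was known for 153 of the 898. In both replicates separately the increase was over 1 for 847 genes, which stand apart as a cloud in the plot of both replicates. No gene was called by edgeR's paired test (0 of 9392, lowest adjusted p = 0.201), with 1404 genes (14.9%) at an unadjusted p under 0.05, 755 higher (8.04%) and 649 lower on day 2. Without the CT 4 pair of replicate 1, 3 genes were called, all lower on day 2, 1 of them FBgn0035484, described below. DESeq2's Wald test with the same pairs called 922 genes (9.82%), 797 higher and 125 lower on day 2. Across genes, the shifts of the replicates correlated with r = 0.794, which was 0.817 for mean counts of 20 to 200 and 0.524 for 200 or more; genes are not independent replicates, and no p is given.

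**Figure D3:**
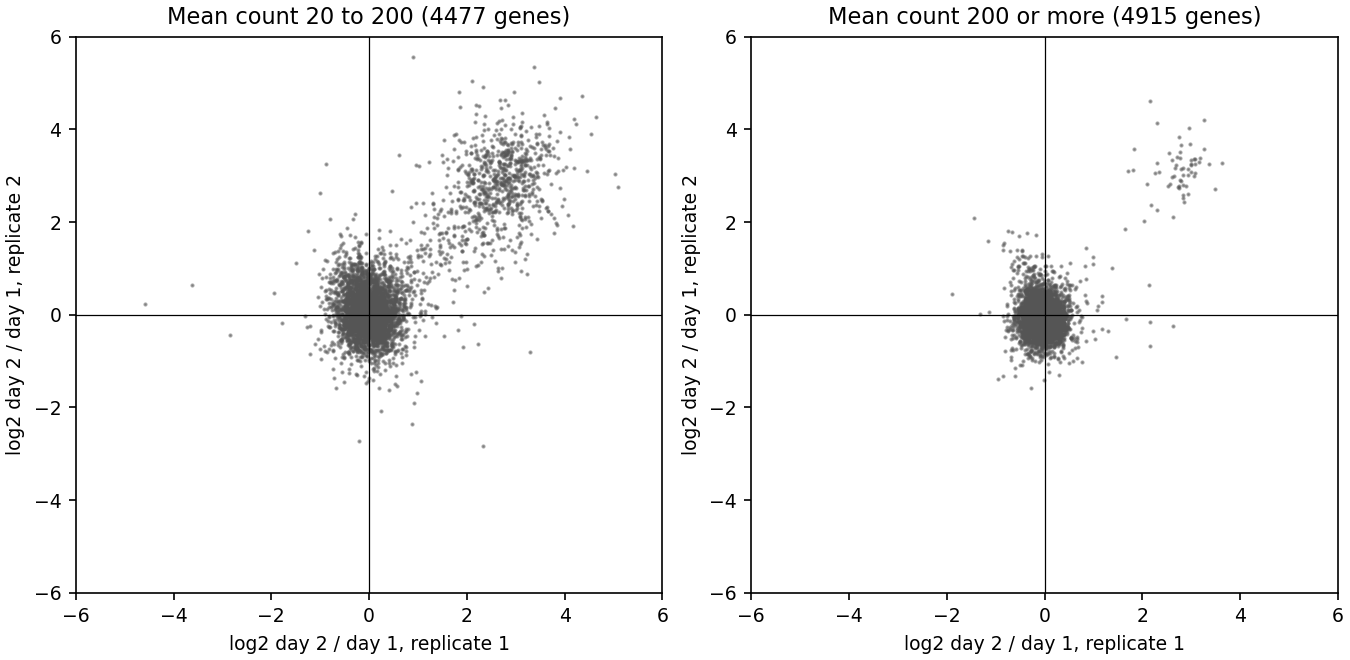
Log2 difference of day 2 over day 1 in replicate 2 against replicate 1, one point a gene, for 4477 genes with a mean count of 20 to 200 (left) and 4915 genes with 200 or more (right). A separate cloud of genes lies above 1 on both axes, with 785 genes in the left panel and 62 in the right, and no gene lies below -1 on both.

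A list of 22 genes of the testis, accessory gland, ejaculatory duct and ejaculatory bulb was drawn up after these values were seen and carries no test of its own. All 22 were higher on day 2, by 2.05 to 3.72 on the log2 scale (median 2.84, against -0.01 over all genes), and none was called by edgeR (lowest adjusted p = 0.310), while DESeq2 called 17 of the 22, against 9.82% of all genes. The testis beta tubulin gene betaTub85D had a lowest, median and highest level of 0, 1.75 and 24.4 CPM on day 1 and 0, 18.4 and 54.6 CPM on day 2. Mst87F, a sperm tail protein gene, had 0, 1.73 and 22.7 CPM and then 0, 23.8 and 41.4 CPM. For Ebp, a protein of the ejaculatory bulb, these were 0, 1.81 and 22.9 CPM and then 0, 15.4 and 43.2 CPM. The ranges overlapped for all these genes, because low libraries occurred on both days.

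Summed over the 22 genes, 12 libraries lay between 2.12 and 71.1 CPM and 12 between 244 and 1341 CPM, with none between these ranges. The high libraries were 3 of 12 on day 1 (8 h in both replicates and 12 h in replicate 2) and 9 of 12 on day 2. The low libraries of day 2 were at 28 h in both replicates and at 32 h in replicate 2. The 12 libraries highest in this RNA were also the 12 highest in the summed level of 4 gut enzyme genes and the 12 with the most genes detected at equal depth. Gut enzyme RNA ranged from 10.3 to 47.2 CPM on day 1 and from 15.8 to 133 CPM on day 2. Cyp4g1, a P450 of the oenocytes, which make the waxes of the cuticle, ranged from 0 to 135 CPM and from 1.67 to 547 CPM. In replicate 1, all 6 high libraries carried the letter a in their label, and none of the libraries with other letters was high. This letter marked 2 of 6 libraries on day 1 and 5 of 6 on day 2, so in replicate 1 the letter followed both the RNA and the day. With the letter as a covariate, 0 genes were called by edgeR and 1152 had an unadjusted p under 0.05. All libraries of replicate 2 carried the same letters, and 6 of them were high. What the letters stand for is not given in the sources used here, and the source of this RNA was not tested.

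**Figure D4:**
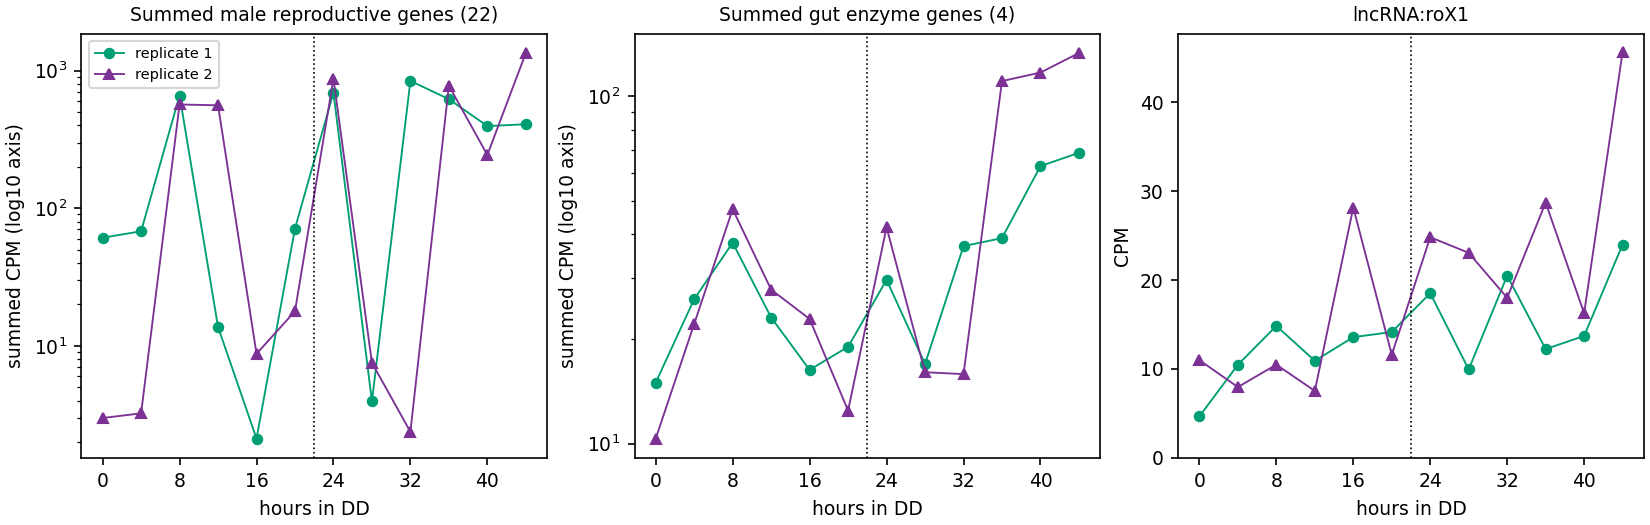
Summed CPM of 22 male reproductive genes (left, log10 axis), of 4 gut enzyme genes (middle, log10 axis) and CPM of lncRNA:roX1 (right) against hours in DD; green circles are replicate 1, purple triangles are replicate 2, and the dotted line divides the days. On the left, 9 of 12 day 2 libraries and 3 of 12 day 1 libraries lie above 200 CPM.

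The log2 sum of these 22 genes was then added as a covariate (called the covariate below). With it, 82 genes had a log2 difference above 1 in place of 898. An unadjusted p under 0.05 was given by edgeR for 694 genes in place of 1404. The 22 genes are among the genes tested and were listed after their values were seen. Their sum was itself higher on day 2 in 10 of 12 pairs, so part of these falls is built in. The part due to this RNA was not tested.

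Genes lower on day 2 differed by smaller amounts. The 12 of smallest p in this direction had log2 differences from -0.96 to -0.35 and were lower in 10 to 12 of 12 pairs. None was called by edgeR (adjusted p from 0.201 to 0.232). DESeq2 called all 12, against 1.33% of all genes called as lower. These 12 were chosen by their edgeR p in the same libraries, so their pair counts and DESeq2 calls are partly built in. Over all genes, 0.245% were lower in all 12 pairs and 0.0106% were higher in all 12. Only Egfr and CG6126 of these 12 have a symbol in the tables used. The gene FBgn0035484 had a lowest, median and highest level of 42.5, 87.5 and 114 CPM on day 1 and 26.2, 50.6 and 87.4 CPM on day 2, and was lower in 12 of 12 pairs. FBgn0005391, a far more abundant transcript, averaged 6477 CPM on day 1 and 3579 CPM on day 2 and was lower in 12 of 12 pairs, by 0.96 ± 0.20 on the log2 scale. Neither has a name in the tables used.

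Egfr, the receptor for the fly's epidermal growth factor ligands, had a lowest, median and highest level of 24.9, 32.3 and 46.6 CPM on day 1 and 18.7, 25.7 and 38.1 CPM on day 2. It was lower in 12 of 12 pairs, by 0.35 ± 0.08 on the log2 scale (edgeR, p = 0.000307, adjusted p = 0.226), and by 0.36 and 0.34 in the separate replicates. With the covariate it was lower by 0.32. The ranges of both days overlapped, so the difference shows within pairs more than between days. The gene lies at 2R:21522420-21559977 and 5 annotated genes overlap it, so that reads of these cannot be told apart from its own without the strand.

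The 12 genes with a symbol and the smallest p in this direction were taken after their values were seen. Among them, Fdh encodes formaldehyde dehydrogenase, and its lowest, median and highest levels were 193, 286 and 352 CPM on day 1 and 122, 228 and 327 CPM on day 2. It was lower in 12 of 12 pairs by 0.39 ± 0.09 (adjusted p = 0.276), and by 0.33 with the covariate. Hexo2, a lysosomal type of hexosaminidase, went from 31.9, 44.03 and 56.8 CPM to 22.96, 30.3 and 48.97 CPM, lower in 12 of 12 pairs by 0.39 ± 0.09 (adjusted p = 0.288), and by 0.42 with the covariate. CG6126 was lower in 11 of 12 pairs by 0.54 ± 0.11 (adjusted p = 0.219). The protease 26-29-p and the beta-galactosidase Ect3 were lower by 0.34 ± 0.09 and 0.29 ± 0.08. The remaining members were CG9396, CG5541, CG4409, CG4408, CG15093 and CG33301.

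**Figure D5:**
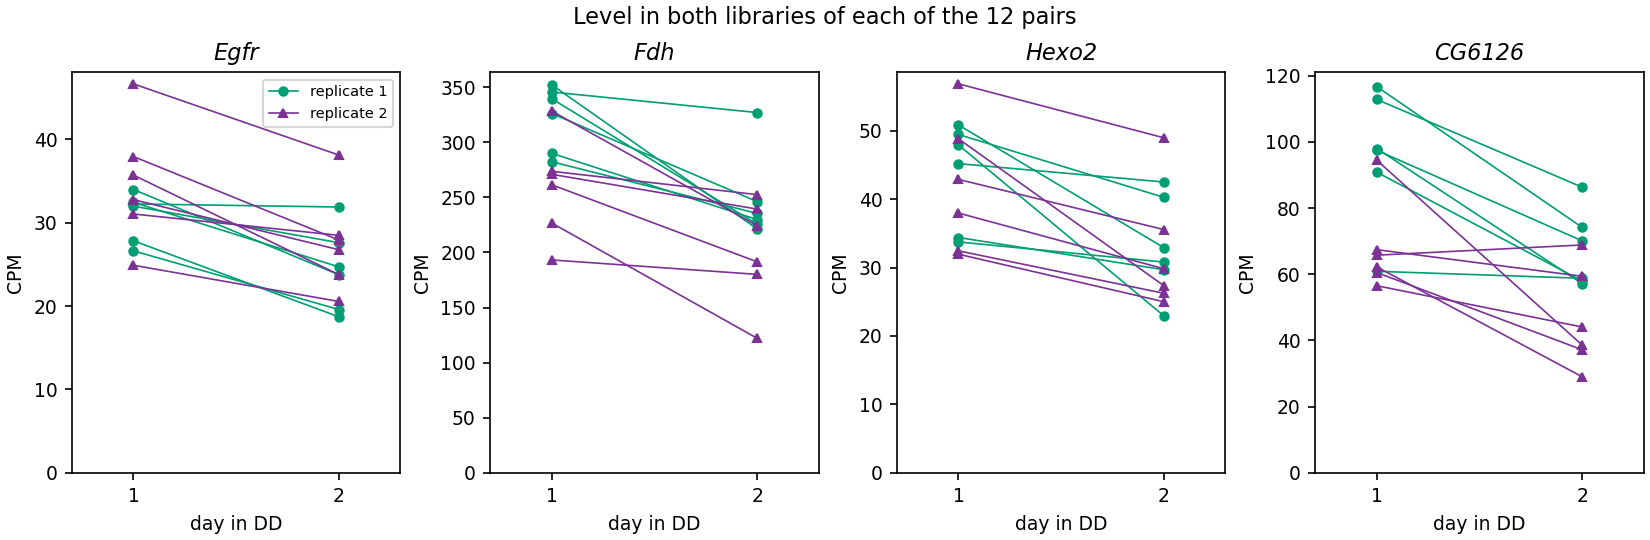
CPM of Egfr, Fdh, Hexo2 and CG6126 on day 1 and day 2; each line joins both libraries of 1 of 12 pairs, with green circles for replicate 1 and purple triangles for replicate 2. All 12 lines slope down for Egfr, Fdh and Hexo2 and 11 of 12 for CG6126.

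Of the 12 genes of smallest p that were higher on day 2, 11 have no symbol and the 12 fitted log2 differences ran from 0.41 to 4.72 (adjusted p from 0.201 to 0.288). DESeq2 called all 12, against 8.49% of all genes called as higher, but these 12 were chosen by their edgeR p in the same libraries. With the covariate the differences ran from 0.36 to 2.45. LysP, a digestive lysozyme, had counts at or near 0 in most day 1 libraries, with a highest level of 1.55 CPM on day 1 and a median of 1.17 and a highest of 6.43 CPM on day 2; 11 of 12 pairs were higher. FBgn0039075 went from a median of 3.21 CPM to 5.54 CPM, a log2 difference of 0.95 ± 0.18 with 11 of 12 pairs higher, and of 1.03 with the covariate. FBgn0263767 was at a median of 0 CPM on day 1 and 0.936 CPM on day 2, and its fitted difference of 4.72 was 1.82 with the covariate (unadjusted p = 0.215).

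Among genes with a symbol, picked after their values were seen, bb8 encodes a mitochondrial protein of sperm development and stood at 0 to 7.05 CPM on day 1 and 0.251 to 15.8 CPM on day 2; its difference of 2.40 was 0.60 with the covariate. The epithelial transcription factor gene grh had a median of 5.46 CPM on day 1 and 9.83 CPM on day 2 and was higher in 11 of 12 pairs by 0.71 ± 0.20 (adjusted p = 0.288). With the covariate for male reproductive RNA this was 0.58. Indy, a plasma membrane citrate carrier, was higher in 9 of 12 pairs by 0.36 ± 0.12 (adjusted p = 0.310). The remaining members were CG9393, CG17764, CG7202, CG8097, CG5506, CG2854 and scpr-C.

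lncRNA:roX1 is a non-coding RNA of the complex that raises the output of the male X chromosome and is made in male tissues generally. Its lowest, median and highest levels were 4.66, 10.95 and 28.2 CPM on day 1 and 9.95, 19.5 and 45.7 CPM on day 2. It was higher in 10 of 12 pairs by 0.82 ± 0.24 (adjusted p = 0.291), and by 0.81 with the covariate for reproductive RNA. Of the 12 libraries highest in roX1, 8 were among the 12 highest in male reproductive RNA. The gene overlaps ec. Of 9 listed sex-biased genes, only 3 could be paired with an identifier. Yp1, Yp2 and Yp3 could not, so they may be among the genes without a symbol, and these 3 do not stand for the list. Beside roX1 the paired genes were sxe2 and Cyp4d21. The level of sxe2 was lower by 0.22 ± 0.10 (adjusted p = 0.318) and by 0.30 with the covariate. The difference of Cyp4d21 was 0.15 ± 0.12 (adjusted p = 0.567). The sex of the collected flies is not given in the sources used here, and its part in the day differences was not tested.

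Gene groups are described by their counts, since only members with a symbol could be found and none of their members was called by edgeR (0% of all genes were). Of 28 cytochrome P450 genes, enzymes of detoxification and hormone metabolism, 21 were lower on day 2 and 7 higher, with a median of -0.12 against -0.01 over all genes (18 lower after DESeq2 size factors and 23 after quantile normalization). Unadjusted p was under 0.05 for 6 lower members (6.91% of all genes) and no higher one. Cyp9b2 averaged 117 CPM on day 1 and 88.3 CPM on day 2, lower in 11 of 12 pairs by 0.43 ± 0.13 (adjusted p = 0.288), and Cyp28d1 was lower in 11 of 12 by 0.32 ± 0.10 (adjusted p = 0.310). Cyp4g1, named above, was higher by 2.03 ± 1.10, and by 0.25 with the covariate.

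Of 6 genes tested from the phototransduction and photoreceptor list, 5 were lower and 1 higher (48.8% of all genes were higher). Their median was -0.20, and -0.08 with the covariate. The list includes ort, a receptor for the photoreceptor transmitter rather than a photoreceptor gene, which was lower by 0.21 and higher by 0.01 with the covariate. The gene for chaoptin (chp), a photoreceptor surface protein, was lower in 10 of 12 pairs by 0.40 ± 0.14 (adjusted p = 0.310), and by 0.24 with the covariate. Both astrocyte markers were lower, Gabat in 10 of 12 pairs by 0.30 ± 0.10 (adjusted p = 0.306) and e by 0.25 ± 0.13 (adjusted p = 0.361), and by 0.26 and 0.10 with the covariate. Of 4 fat body genes, 3 were lower, with Tsf1 (transferrin) lower in 10 of 12 pairs by 0.33 ± 0.13 and tobi, a sugar-responsive glucosidase, lower by 0.72 ± 0.30 (adjusted p = 0.310 and 0.312). With the covariate Tsf1 and tobi were lower by 0.46 and 0.92, and the median of the 4 genes was -0.32 in place of -0.25. All 4 gut enzyme genes were higher, by 0.73 to 3.00, and by 0.09 to 0.40 with the covariate. DESeq2 called all 4, against 9.82% of all genes. Of 12 genes of feeding and fasting, 8 were lower and 4 higher, and brummer (bmm), a fat-mobilizing lipase, was higher in 8 of 12 pairs by 0.42 ± 0.17 (adjusted p = 0.310). Of 13 immune recognition and signalling genes, 5 were lower and 8 higher, within -0.26 and 0.20.

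The direction of the housekeeping groups turned after quantile normalization but not with DESeq2 size factors. Of 15 ribosomal protein genes, 12 were lower with a median of -0.05, against 10 and -0.010 with size factors and 7 and 0.04 after quantile normalization. Of 19 respiratory chain genes, 16 were lower with a median of -0.08, against 14 and -0.04 with size factors and 8 and 0.03 after quantile normalization. Within this group COX6AL and UQCR-11L, at mean counts of 30.3 and 21.5, were higher by 3.11 ± 1.07 and 1.23 ± 0.48, in 10 of 12 pairs each, and by 1.31 and 0.87 with the covariate. DESeq2 called 2 of the 19, against 9.82% of all genes.

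No gene was called for a day difference that itself differed between the replicates (0 of 9392, lowest adjusted p = 0.260), with 1013 at an unadjusted p under 0.05. The smallest p values included Vap33, a membrane contact protein of the endoplasmic reticulum, and shep, an RNA-binding protein of neurons, beside 4 genes with no symbol. Vap33 was lower on day 2 by 0.82 in replicate 1 and higher by 1.55 in replicate 2, where the 44 h library reached 251 CPM against 47.4 to 63.2 CPM at the other day 2 times. For shep the values were -0.53 and 1.05.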

How the data were processed

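The authors purified EGFP-tagged ribosomes from fly heads with an EGFP antibody, made TruSeq libraries, and per the labels aligned the reads with TopHat2 2.0.9 to BDGP Release 6 and counted reads per gene with HTSeq 0.6.1. The 48 deposited tables hold raw counts per gene; rows that name no gene (reads that are ambiguous, not unique or outside genes) made up 8.90% to 64.6% of a library and were left out. The counting mode and its strand setting are not given in the sources used here. Both data sets of a library were summed, giving 24 libraries (1 data set at 28 h held 91 counts). Genes with a mean of at least 20 counts were scaled by TMM and tested with edgeR 4.0.16 (quasi-likelihood, robust; R 4.3.3). The day difference used 12 pairs as blocks; the rhythm fit held replicate, day and a 24 h cosine and sine for each day. Benjamini-Hochberg adjustment covered all 9392 genes, with calls at adjusted p under 0.05. Amplitudes came from least squares on log2 CPM with 0.5 counts added, and exact permutations exchanged the days within pairs after each day's mean was removed; 16 such tests are given, unadjusted. The edgeR tests of day and rhythm were tested on simulated data. Those data drew each gene separately, with the same spread for all genes and no difference between replicates or in library composition. They thus give no error rate for libraries that differ in male reproductive RNA as these do. Day 1 and day 2 libraries come from different flies, so a pair shares only circadian time and biological replicate. The paper describes the replicates as flies from independent crosses. In replicate 1 the letter in the label differed within the pairs at CT 12, 16 and 20. Whether the libraries of these pairs share a cross is not given. P-values thus rest on 2 replicates.

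Symbols could be paired with 1779 of the 9392 identifiers (18.9%), mainly from names in the study's rhythm table, with RefSeq (Release 6 plus ISO1 MT) for positions and the rest, so named genes lean towards those ranked there. Genes named were the clock list, the 12 of smallest p in each direction, and the 6 of smallest p for a rhythm difference and for a replicate difference; others are stated to be chosen after their values were seen. The comparison and the gene lists were chosen with earlier results of these data known. Alternatives were DESeq2 1.42.0, limma 3.58.1 on quantile normalized counts, other count minimums, single data sets, left-out libraries, no replicate block, a linear trend, the letter in the label and, added later, male reproductive RNA as a covariate.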

Additional observations from a re-analysis of the deposited data

Results flagged for a closer look

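Each library was set against the other 5 of its replicate and day. The same libraries were grouped for several quantities, which gave 20 groups of 6. Of these, 4 held a library far from the rest by Dixon's criterion. Chance meets it in about 1 in 20 groups, but these groups are not independent. In the 28 h library of replicate 2, the 10 most abundant genes held 49.56% of the gene counts, against 10.96% to 14.6% in the other 5. Reads without a unique alignment were 46.96% of all tallied reads in that library, against 3.92% to 6.44%. The 28 h library of replicate 1 had 10310 genes detected at equal depth, against 12160 to 12751. The 8 h library of replicate 1 held 659 CPM of male reproductive RNA, against 2.12 to 71.1 CPM.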

How the results depend on the processing

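The count of genes with a day difference was 0 in every setting except DESeq2's Wald test (922) and the leave-outs of single pairs or replicates (0 to 3, the 3 without the CT 4 pair of replicate 1). Among genes with an unadjusted p under 0.05, 53.8% were higher on day 2, against 66.7% with DESeq2 size factors and 44.2% after quantile normalization. Rhythm calls on day 1 numbered 16, with 6 after quantile normalization and 1 to 18 across the leave-outs. On day 2 they numbered 2, with 5 at a mean of at least 100 counts and 0 to 4 across the leave-outs. Calls for a rhythm difference stayed at 0 in all settings run.

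The level differences of clock genes near 0 changed sign. For per (-0.02) the values were 0.022 with size factors, 0.018 with DESeq2, 0.035 at a mean of at least 100 counts, 0.069 as a linear trend, 0.15 with the label letter, 0.11 with the male reproductive covariate, 0.28 in the 4 pairs on 1 side of 200 CPM of male reproductive RNA, and -0.24 to 0.19 across leave-outs. For to (0.06) they were -0.063 after quantile normalization, -0.10 with the letter, -0.010 with the covariate, -0.078 in those 4 pairs, and -0.085 to 0.13 across leave-outs. For qsm (-0.05) they were 0.0051 at a mean of at least 100 counts, 0.012 in data sets 2 and 4 alone, and -0.13 to 0.0073 across leave-outs. For vri (0.08) the value was -0.0070 in data sets 2 and 4 alone and -0.013 to 0.20 across leave-outs. Across leave-outs Clk ranged from -0.028 to 0.29 and Pdp1 from -0.10 to 0.88. The amplitude difference of CG42329 was 0.35 after quantile normalization; across leave-outs those of Clk (-0.53 to 0.021), Cyp4d21 (-0.34 to 0.19), phu (-0.60 to 0.10) and b (-0.39 to 0.020) changed sign. The cause was not tested. Among all alternatives for named genes, 894 and 236 kept their direction and side of the threshold for levels and amplitudes, 27 and 5 changed sign, and 31 level differences passed it.

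Correlations of the deviations within pairs ran from -0.83 to 0.81 (median 0.07), 6 of 12 were above 0.1, and 1 of 12 matched its own partner best. These data thus gave no sign that same-numbered libraries deviated together. The pairs follow circadian time and biological replicate. With no replicate block, 0 genes were called for a day difference (1301 at an unadjusted p under 0.05), 13 for a rhythm on day 1, 2 on day 2 and 0 for a rhythm difference. With the replicate block and circadian time added up, 0 were called (1624 at an unadjusted p under 0.05). Leaving out a replicate leaves 1 library for each time.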
